A study of Mus musculus with 46 samples.

Results

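The 10 circadian clock genes described here are Arntl, Clock, Nr1d1, Nr1d2, Per1, Per2, Per3, Ciart, Dbp and Tef, chosen by name from a table of raw read counts for 54134 genes in microglia of the mouse, the macrophages that reside in the brain. The 46 libraries came from 5xFAD mice (labelled AD, 24 libraries), which carry human transgenes with familial Alzheimer's disease mutations, and from wild-type mice (WT, 22 libraries). The mice were fed HAMSAB, a high-amylose maize resistant starch to which acetate and butyrate are attached, a zero fiber diet, or a control diet. Each combination of diet and genotype had 8 libraries, 4 from females and 4 from males, except zero fiber WT, which had 6 libraries with 2 from males. The 5xFAD transgenes are driven by the Thy1 promoter, which is mainly active in neurons. The labels give no age, no time on the diet, no time of day at collection and no method of isolation. Nor do they state whether every library is a separate animal, so the p-values refer to the spread of libraries, which may be technical.

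The circadian clock is a feedback loop of transcription. The proteins of Arntl (also called Bmal1) and Clock pair and switch on genes that carry an E-box, among them the Per and Cry genes, whose proteins return to the nucleus and inhibit the pair. Nr1d1 and Nr1d2 encode the REV-ERB nuclear receptors, which repress Arntl through a sequence called the RRE and make Arntl rise when they fall. Ciart (also called Chrono) is a further repressor of the pair, and Dbp and Tef encode PAR bZIP factors that act through D-boxes, including those of the Per genes. In most mouse tissues Arntl is therefore highest at a time of day when Nr1d1, Dbp and Per3 are low, and macrophages, microglia among them, are known to run such a clock.

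Promoter stretches are shown for those members whose windows held elements of this loop. RefSeq windows of 250 bases before to 50 bases after a gene start (build GRCm38.p6) were found for 9 of the 10 members, 14 windows in all, and the member named without a window is Per2. Capitals mark the match, and each sequence is written 5′ to 3′ on the gene's strand. The searches covered both strands for the E-box CACGTG, the D-box TTATGTAA, the RRE AGTAGGTNA and the cyclic AMP response element TGACGTCA. The first pair below are D-boxes of Per3 (chr4:151044805-151044885, minus strand) and E-boxes of Ciart (chr3:95882254-95882358, minus strand). The others are E-boxes of the 2 Tef windows (chr15:81802528-81802567 and chr15:81811259-81811298, plus strand), an E-box of Per1 (chr11:69098766-69098805, plus strand) and RREs of Arntl (chr7:113207493-113207521 and chr7:113207528-113207557, plus strand).
Per3 D-boxes: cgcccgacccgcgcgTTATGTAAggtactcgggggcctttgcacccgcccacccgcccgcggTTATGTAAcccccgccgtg
Ciart E-boxes: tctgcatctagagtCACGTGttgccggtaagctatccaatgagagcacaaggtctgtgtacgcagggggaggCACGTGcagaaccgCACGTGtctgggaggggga
Tef E-box, window 1: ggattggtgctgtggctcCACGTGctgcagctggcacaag
Tef E-box, window 2: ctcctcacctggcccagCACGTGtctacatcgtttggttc
Per1 E-box: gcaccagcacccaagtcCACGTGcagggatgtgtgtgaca
Arntl RRE, upstream: ttggtcggaaAGTAGGTTAgtggtgcgac
Arntl RRE, downstream: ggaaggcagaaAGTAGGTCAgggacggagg

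Ciart held 3 E-boxes, and Per1 and Tef held 1 in a window, so that 4 of the 14 member windows held at least 1. Among all 32851 RefSeq windows 7.15% held at least 1. Per3 held 2 D-boxes, which begin at positions -205 and -158 from its start, against 0.938% of all windows with any. Arntl held 2 RREs around its second annotated start, against 0.591% of all windows. The RRE labelled upstream runs from -8 to 1, across that start, and the other from 29 to 37. No member window held the cyclic AMP response element, which was present in 1.79% of windows. The windows of Clock, Nr1d1, Nr1d2 and Dbp held none of the motifs searched. A match is a description of the letters, and a missing match says only that these letters are not in the window.

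Depth ran from 52114 to 6950429 counts per library, with a median of 2344837.5. Levels are given as CPM, read counts scaled to the TMM-adjusted size of each library. The microglia label fitted the markers: the summed CPM of P2ry12, Tmem119, Cx3cr1, Csf1r and Siglech was 20270 to 31930 in the libraries with a series number, whereas Gfap, Tubb3, Cldn5 and Cd3e had 0 counts in 26, 26, 43 and 43 of the 46 libraries. Other genes on the lists of further cell types were detected, with mean levels of 248.1 CPM for Slc1a3, 125.8 for Ttr, 79.3 for Cnp, 61.3 for Pecam1, 60.6 for Hbb-bs and 41.8 CPM for Mbp, and Snap25 was at 0 in only 1 library. In bulk RNA, fewer cells of a type and less RNA per cell cannot be told apart. A pair of libraries stands apart and was left out in an alternative fit: zero fiber AD female replicate 1, whose sex-linked genes go against its label, and zero fiber AD male replicate 2, which has the lowest depth. In the library of lowest depth a count of 0 allows up to 57.6 CPM (3 counts of its total), so its 0 counts for Arntl, Nr1d1, Per2, Dbp and Ciart carry little information.

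Per kilobase of exon, Tef and Per1 were the most abundant members in microglia. Over the 46 libraries Tef averaged 9.32 ± 2.01 CPM per kb (SD), Per1 9.24 ± 4.08, Nr1d2 6.38 ± 1.97 and Clock 4.82 ± 0.835 CPM per kb. Per3 averaged 4.04 ± 1.32, Ciart 2.41 ± 0.875 and Arntl 2.15 ± 0.669 CPM per kb. Nr1d1, Per2 and Dbp were lowest, at 0.526 ± 0.368, 0.456 ± 0.264 and 0.393 ± 0.311 CPM per kb. Along this order each gene's mean ± SD overlapped that of its neighbour at every step but 1, the step between Arntl and Nr1d1. Nr1d1 and Dbp, often the strongest cycling clock transcripts in other mouse tissues, were here at 0 to 23 and 0 to 8 reads per library and did not pass the filter on low counts. The other 8 members were among the 12121 genes tested. Because the strand setting of the counting is not given, reads of the opposite-strand exons that overlap Nr1d1 (263 of its 3077 exon bases, Thra), Dbp (539 of 2993, Sphk2), Tef (193 of 7867, Gm17597) and Arntl (33 of 7523, Gm45355) cannot be told from their own.

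**Figure D1:**
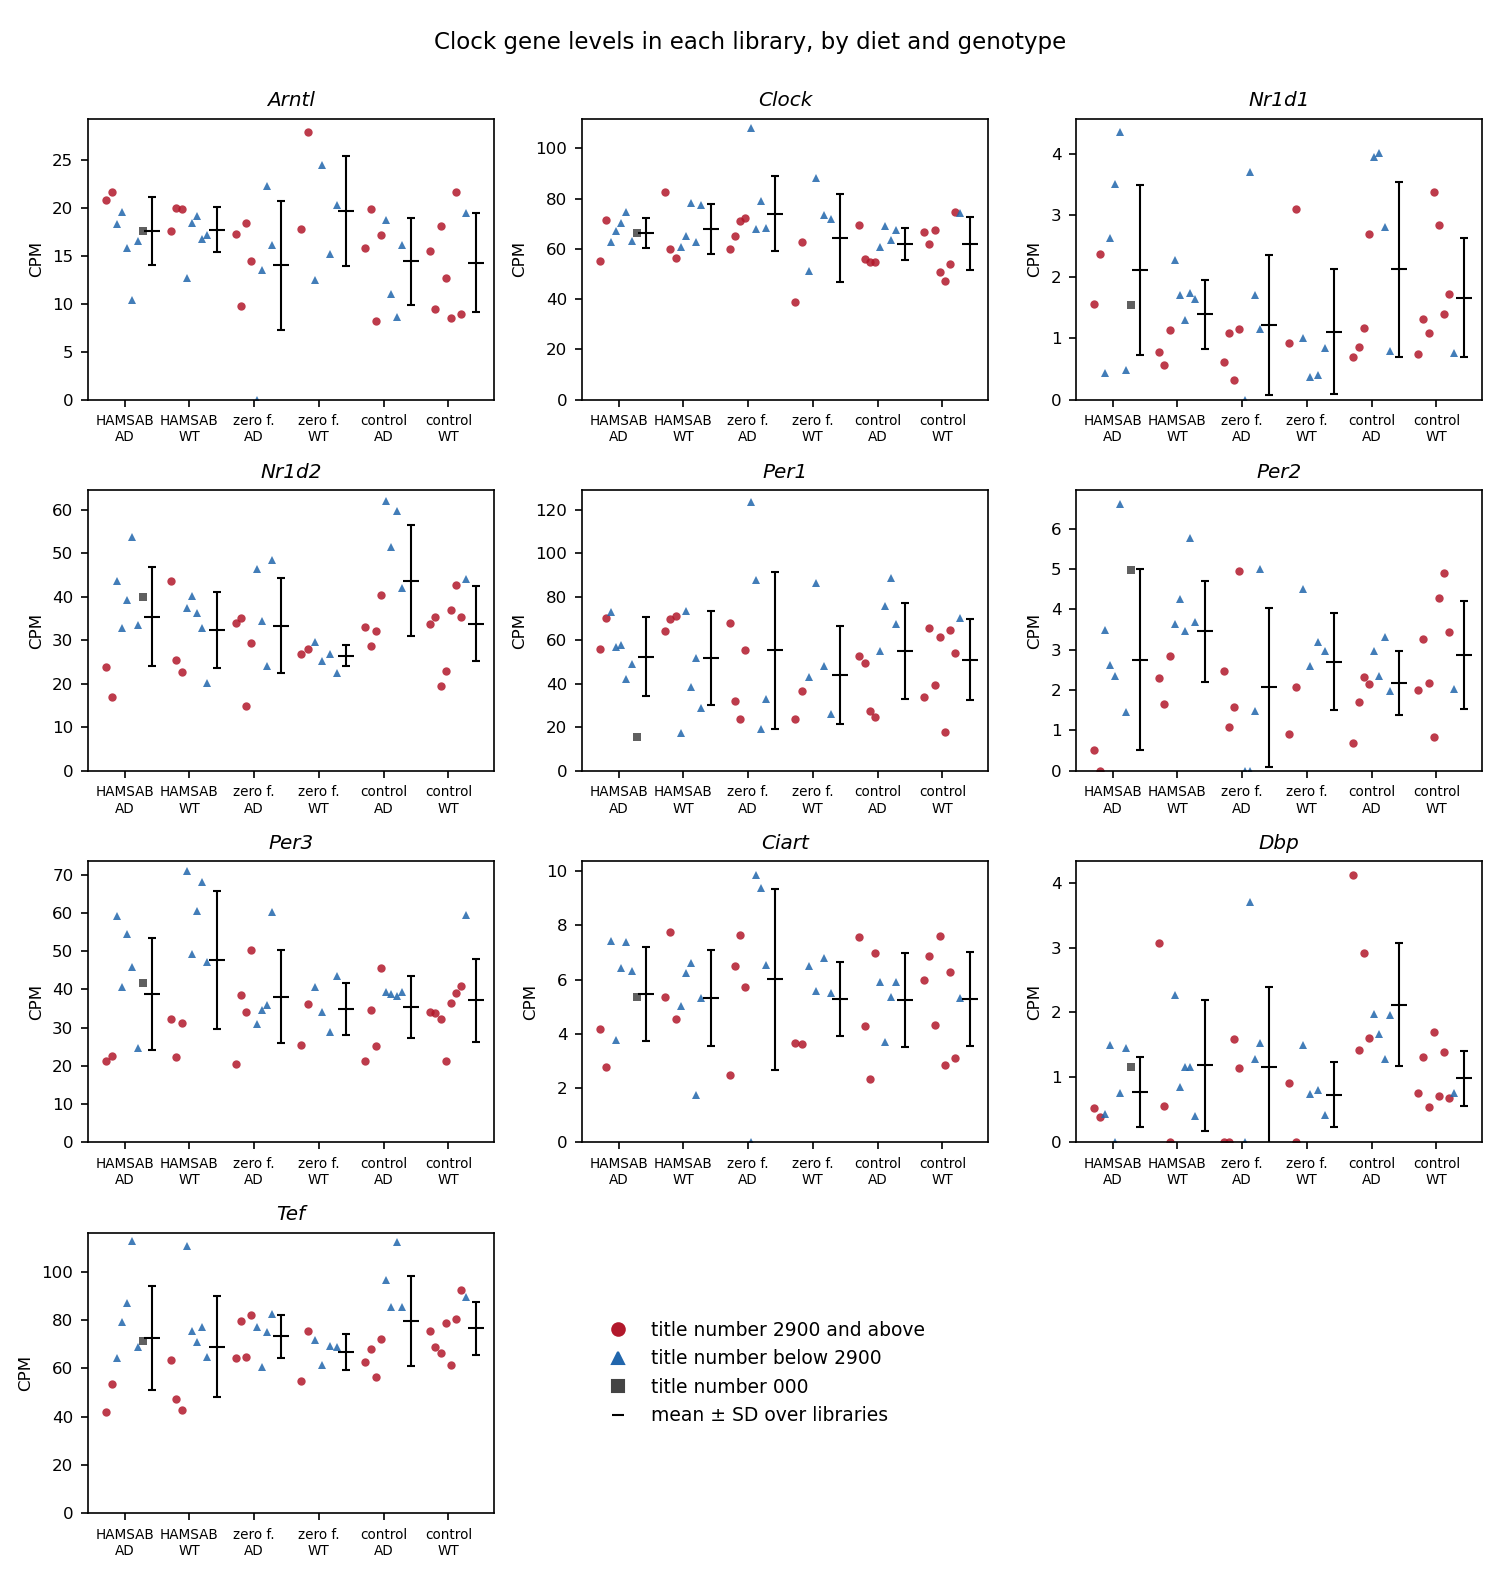
Level of each of the 10 clock genes (CPM, 1 panel a gene) in the 6 diet-by-genotype groups, with 1 point a library, shaped by its title number, and the mean ± SD of each group. The groups overlap for every gene, and control AD libraries reach the highest Nr1d2 level, 62.1 CPM.

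Across the 9 comparisons of genotype or diet, no tested member passed an adjusted p of 0.05. edgeR's quasi-likelihood test, with Benjamini-Hochberg adjustment over all 12121 genes, called 0 of the 72 member contrasts, and DESeq2 and limma voom also called 0. An unadjusted p under 0.05 was reached in 3 of the 72. The log2 fold changes of the members lay between -0.46 and 0.49. For AD against WT, the share of all genes called was 0.00825% on zero fiber, 0% on control and 1.68% on HAMSAB. The 0% on control stands beside 655 genes with an unadjusted p under 0.05 in edgeR and 0 genes called by DESeq2 and by voom. HAMSAB against zero fiber called 0.239% of genes in AD and 2.19% in WT, and HAMSAB against control called 0.0743% in AD and 0.281% in WT. Zero fiber against control called 0.0578% in AD and 0.00825% in WT. At these shares a count of 0 among 8 members is near the background.

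**Figure D2:**
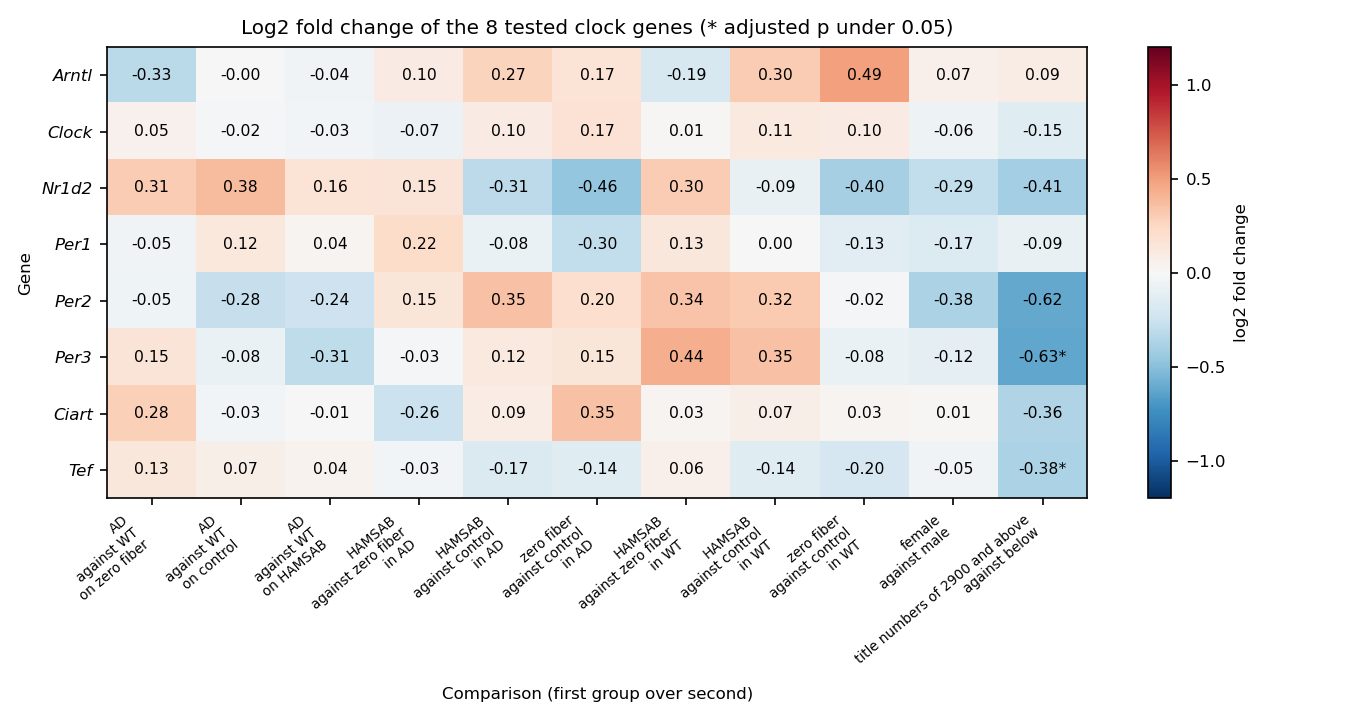
Log2 fold change (printed and as colour, first-named group over second) of the 8 tested clock genes in the 9 genotype and diet comparisons, by sex and by title number; asterisks mark an edgeR adjusted p under 0.05. The genotype and diet values lie between -0.46 and 0.49 with no asterisk, and the asterisks stand at Per3 (-0.63) and Tef (-0.38) in the comparison by title number.

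Neither activator, Arntl or Clock, was called in any genotype or diet comparison. Arntl, which sits at chr7:113207465-113314126 on the plus strand, had a lowest, median and highest level of 10.4, 17.99 and 21.7 CPM in HAMSAB AD libraries and 12.7, 18.03 and 19.98 CPM in HAMSAB WT libraries. In zero fiber AD libraries these were 0, 15.3 and 22.3 CPM, and in zero fiber WT libraries 12.5, 19.04 and 27.9 CPM. Control AD libraries had 8.16, 15.95 and 19.9 CPM, and control WT libraries 8.55, 14.1 and 21.7 CPM. Zero fiber WT libraries reached the highest values, and all 6 groups overlapped. The zero fiber against control difference in WT was log2 0.49 ± 0.22 (SE, edgeR adjusted p = 0.579), with group means of 19.7 ± 5.77 CPM (SD, n = 6) on zero fiber and 14.3 ± 5.14 CPM (n = 8) on control. The same difference in AD was 0.17 ± 0.21. The AD minus WT difference of Arntl was -0.33 ± 0.23 on zero fiber (edgeR adjusted p = 1) and -0.41 without the 2 doubted libraries (edgeR adjusted p = 0.930). It was -0.04 ± 0.20 on HAMSAB and 0.00 ± 0.20 on control.

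Clock, at chr5:76209868-76304792 on the minus strand, was the steadiest member. Its 6 group means lay between 62.0 ± 6.28 CPM in control AD (n = 8) and 74.0 ± 14.9 CPM in zero fiber AD libraries (n = 8), and its 9 log2 fold changes between -0.07 and 0.17. Without the library of lowest depth Clock averaged 69.1 ± 6.01 CPM in zero fiber AD (n = 7). The biological coefficient of variation that edgeR fitted within groups was 0.124 for Clock, above that of 27.8% of the 1000 tested genes nearest to it in level. Its partner Arntl had 0.230, above 78.8% of its own neighbours.

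Nr1d2, the REV-ERB receptor gene with an appreciable level (chr14:18204054-18239127, minus strand), came nearest to a difference between the groups. Its lowest, median and highest levels were 16.9, 36.4 and 53.7 CPM in HAMSAB AD libraries and 20.1, 34.6 and 43.7 CPM in HAMSAB WT libraries. They were 14.96, 34.3 and 48.4 CPM in zero fiber AD libraries and 22.4, 26.8 and 29.6 CPM in zero fiber WT libraries. In control AD libraries they were 28.7, 41.2 and 62.1 CPM, and in control WT libraries 19.5, 35.4 and 44.1 CPM. Zero fiber WT was the narrowest group, and its highest library lay below the median of each other group, though the ranges overlapped.

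Nr1d2 averaged 43.7 ± 12.8 CPM in control AD and 33.8 ± 8.66 CPM in control WT libraries (SD, n = 8 each), a log2 difference of 0.38 ± 0.18 (SE, edgeR adjusted p = 0.908). On zero fiber the AD minus WT difference was 0.31 ± 0.22 and on HAMSAB 0.16 ± 0.18, so it was positive on all 3 diets and called on none. In AD, Nr1d2 averaged 33.4 ± 10.96 CPM in zero fiber libraries and 43.7 ± 12.8 CPM in control libraries (log2 -0.46 ± 0.19, edgeR adjusted p = 0.341). In WT the same comparison gave -0.40 ± 0.21. The zero fiber and HAMSAB comparisons share their control libraries, and the HAMSAB against control values were -0.31 ± 0.18 in AD and -0.09 ± 0.18 in WT.

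A joint test of any difference among the 6 groups called 0 of 8 members, against 4.36% of all genes. Nr1d2 had the smallest member p (edgeR adjusted p = 0.139), and by DESeq2 its adjusted p was 0.147 and by voom 0.356. It passed with a term for the series of title numbers (edgeR adjusted p = 0.0382) and with no filter on low counts (edgeR adjusted p = 0.00153). Whether the diets differed in their effect between AD and WT was tested with 2 interaction contrasts, which called 0 of 8 members against 0.305% of all genes. The smallest member value in that test was for Per3 (edgeR adjusted p = 0.934), 0 members had an unadjusted p under 0.05, and DESeq2 and voom called 0.

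Nr1d1 (chr11:98767932-98775333, minus strand), the paralog of Nr1d2, was too rare for a firm comparison. It averaged 2.11 ± 1.38 CPM in HAMSAB AD, 1.39 ± 0.563 in HAMSAB WT, 1.21 ± 1.14 in zero fiber AD, 1.11 ± 1.01 in zero fiber WT (n = 6), 2.12 ± 1.42 in control AD and 1.66 ± 0.968 CPM in control WT libraries (SD, n = 8 otherwise). In a fit with no filter its AD minus WT log2 difference was 0.53 ± 0.47 on HAMSAB, 0.48 ± 0.66 on zero fiber and 0.51 ± 0.47 on control (edgeR adjusted p = 0.9999 in all 3). The sign is that of Nr1d2 in each diet, with errors about as large as the values.

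Among the Period repressors, Per1 was the most abundant per kilobase, Per3 intermediate and Per2 scarce. Per1 (chr11:69095217-69109960, plus strand), the Period gene that also answers to acute signals, ran from 15.3 CPM in HAMSAB AD female replicate 4 to 123.6 CPM in zero fiber AD male replicate 2, where it rests on 8 reads. The next highest library, control AD female replicate 2, had 88.8 CPM from 348 reads. Its group means lay between 44.03 ± 22.7 CPM in zero fiber WT (n = 6) and 55.4 ± 36.2 CPM in zero fiber AD libraries (n = 8), and without the library of lowest depth zero fiber AD averaged 45.6 ± 25.4 CPM (n = 7) and control AD was highest, at 55.2 ± 22.2 CPM (n = 8). Its 9 log2 fold changes lay between -0.30 and 0.22. The within-group coefficient of variation of Per1 was 0.398, above that of 99.4% of the 1000 genes nearest in level, and the SD within every group was larger than the distance between the highest and the lowest group mean.

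Per3 (chr4:151003652-151044665, minus strand) also varied more within groups than most genes of its level, with a coefficient of 0.288, above 97.2% of neighbours. Its highest group was HAMSAB WT, where the lowest, median and highest levels were 22.2, 48.2 and 70.99 CPM, against 25.6, 35.2 and 43.5 CPM in zero fiber WT libraries and 21.2, 35.2 and 59.6 CPM in control WT libraries. HAMSAB AD libraries had 21.3, 41.2 and 59.4 CPM, zero fiber AD libraries 20.4, 35.2 and 60.3 CPM, and control AD libraries 21.3, 38.5 and 45.7 CPM. HAMSAB WT held the highest library, and all 6 groups overlapped. In WT the HAMSAB minus zero fiber difference was log2 0.44 ± 0.24 (SE, edgeR adjusted p = 0.4997) and the HAMSAB minus control difference 0.35 ± 0.21 (edgeR adjusted p = 0.504). The AD minus WT difference on HAMSAB was -0.31 ± 0.21 (edgeR adjusted p = 0.620).

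Per2 (chr1:91415982-91459324, minus strand) had 0 to 35 reads per library and group means from 2.07 ± 1.97 CPM in zero fiber AD to 3.45 ± 1.25 CPM in HAMSAB WT libraries (SD, n = 8 each). Without the library of lowest depth Per2 averaged 2.37 ± 1.92 CPM in zero fiber AD (n = 7) and was lowest in control AD, at 2.18 ± 0.797 CPM (n = 8). Its log2 fold changes lay between -0.28 and 0.35 with standard errors of 0.40 to 0.49, so differences of that size were not detectable at this depth. Ciart (chr3:95878503-95882251, minus strand), the repressor with 3 E-boxes, had group means between 5.25 ± 1.74 CPM in control AD and 6.01 ± 3.34 CPM in zero fiber AD libraries (SD, n = 8 each), and log2 fold changes between -0.26 and 0.35. Without the library of lowest depth Ciart averaged 6.87 ± 2.47 CPM in zero fiber AD (n = 7).

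Of the PAR bZIP output factors, Tef was the most abundant member per kilobase and Dbp the rarest. Tef (chr15:81802421-81826863, plus strand) had a lowest, median and highest level of 42.1, 70.2 and 112.7 CPM in HAMSAB AD libraries and 42.7, 67.9 and 110.6 CPM in HAMSAB WT libraries. In zero fiber AD libraries these were 60.4, 76.2 and 82.5 CPM, and in zero fiber WT libraries 54.8, 69.2 and 75.4 CPM. They were 56.6, 78.7 and 112.2 CPM in control AD libraries and 61.3, 77.1 and 92.5 CPM in control WT libraries. Both HAMSAB groups were wide at either end, and all 6 groups overlapped. The 9 log2 fold changes lay between -0.20 and 0.13.

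Dbp (chr7:45705088-45710203, plus strand), a direct output of Arntl and Clock, had 3 to 6 reads per library in control AD and 1 to 4 in control WT libraries. It averaged 2.12 ± 0.951 CPM in control AD against 0.981 ± 0.421 CPM in control WT libraries (SD, n = 8 each). In a fit with no filter the log2 difference was 1.09 ± 0.53 (SE, edgeR adjusted p = 0.949). HAMSAB AD libraries had 0 to 4 reads and averaged 0.777 ± 0.543 CPM, a log2 difference from control AD of -1.30 ± 0.54 (edgeR adjusted p = 0.346). Control AD had the highest group mean for this gene as for Nr1d2, on a handful of reads per library and with overlap between the groups.

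Tef, Per3, Nr1d2 and Per2 varied together from library to library. Correlations used log2 CPM with a prior count of 2, with the mean of each of the 12 diet, genotype and sex groups removed, over all 46 libraries. Permutation p-values (two-sided, 100000 permutations within groups) were adjusted by Benjamini-Hochberg over the 28 pairs of the 8 tested members. In 6 of the 28 pairs the adjusted p of Pearson's r was under 0.05, and all 6 were positive and lay among Tef, Per3, Nr1d2 and Per2. These genes are known as targets of the Arntl and Clock pair or of D-box factors, but that does not set them apart. Ciart and Per1, which hold E-boxes above, were in none of the 6 pairs. The r of Ciart was 0.03 with Tef, 0.11 with Per3, 0.11 with Nr1d2 and 0.15 with Per2. All genes of a library share its depth and its cell composition.

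Tef and Per3 had Pearson r = 0.71 and Spearman rho = 0.73 (permutation adjusted p = 7e-04 and 1.4e-04). Tef and Nr1d2 had r = 0.70 and rho = 0.77 (permutation adjusted p = 5.6e-04 and 1.4e-04). Without the 2 libraries farthest from the median of 1 gene of the pair (Per3 and Nr1d2 here), these were r = 0.65 and 0.74. The group means were not taken anew for such values. The remaining pairs were Per2 with Per3 (r = 0.60, rho = 0.61, permutation adjusted p = 0.00567 and 0.00231), Nr1d2 with Per3 (r = 0.56, rho = 0.55, 0.00918 and 0.00991), Per2 with Tef (r = 0.50, rho = 0.59, 0.00401 and 0.00231) and Nr1d2 with Per2 (r = 0.47, rho = 0.45, 0.0495 and 0.0512). The rho of Nr1d2 with Per2 did not pass. For these, r without the 2 farthest libraries was 0.53, 0.55, 0.51 and 0.40. Leaving out each library in turn, 5 of the 6 pairs passed every time, and Nr1d2 with Per2 passed in 22 of 46.

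Arntl, which runs opposite to these genes in other tissues, had weak correlations with them. With Nr1d2 its r was -0.23 and rho -0.29 (permutation adjusted p = 0.230 and 0.276), with Tef -0.19 and -0.23 (0.386 and 0.418), and with Per3 0.00 and -0.08 (0.990 and 0.825). With Per2 its r was 0.16 and rho -0.15 (permutation adjusted p = 0.905 and 0.686). Negative signs with Nr1d2 and Tef did not pass the test. Without the 2 doubted libraries r was -0.28 with Nr1d2, -0.23 with Tef, -0.07 with Per3 and -0.21 with Per2. With the series means of the title numbers also removed these were -0.38, -0.10, 0.09 and -0.04. The highest r of Arntl was with Ciart, at 0.62, but the rho was 0.26 (permutation adjusted p = 0.183 and 0.402), and both genes have 0 reads in the library of lowest depth. Without the 2 libraries farthest for Arntl, with the group means kept, this r was 0.41. Without the library of lowest depth alone, with the means taken anew, it was 0.13. Per1 did not join the positive set, with r = 0.09 to Nr1d2, -0.23 to Per3 and -0.12 to Tef (permutation adjusted p = 0.796, 0.451 and 0.792).

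**Figure D3:**
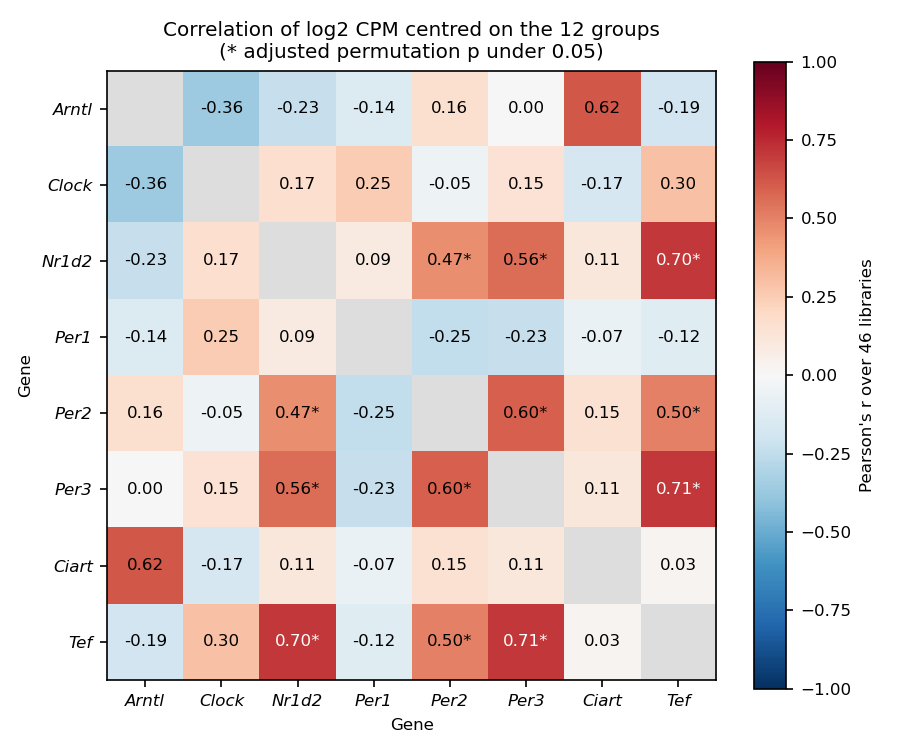
Pearson r between the 8 tested clock genes over 46 libraries after removal of the 12 group means (colour and printed value). The block of Tef, Per3, Nr1d2 and Per2 holds the 6 pairs that passed, with r from 0.47 to 0.71, and the Arntl row is near 0 or negative against Nr1d2 and Tef.

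The numbers in the library titles form 2 series, from 2900 up and below 2900, and within either series no pair passed (smallest permutation adjusted p = 0.119 and 0.107). Groups within a series hold few libraries to permute, which leaves the test little power. It therefore does not show that the correlations are absent within a series. Tef with Nr1d2 had r = 0.50 in the 20 libraries of 2900 and above that could be centred and r = 0.92 in the 20 below. Tef with Per3 had r = 0.53 and 0.60, and Per2 with Per3 r = 0.70 and 0.68, in the same order. The 6 pairs were positive in both series, from 0.18 to 0.92. With group and series means both removed, 2 pairs passed, Tef with Nr1d2 (r = 0.71) and Per2 with Per3 (r = 0.68).

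**Figure D4:**
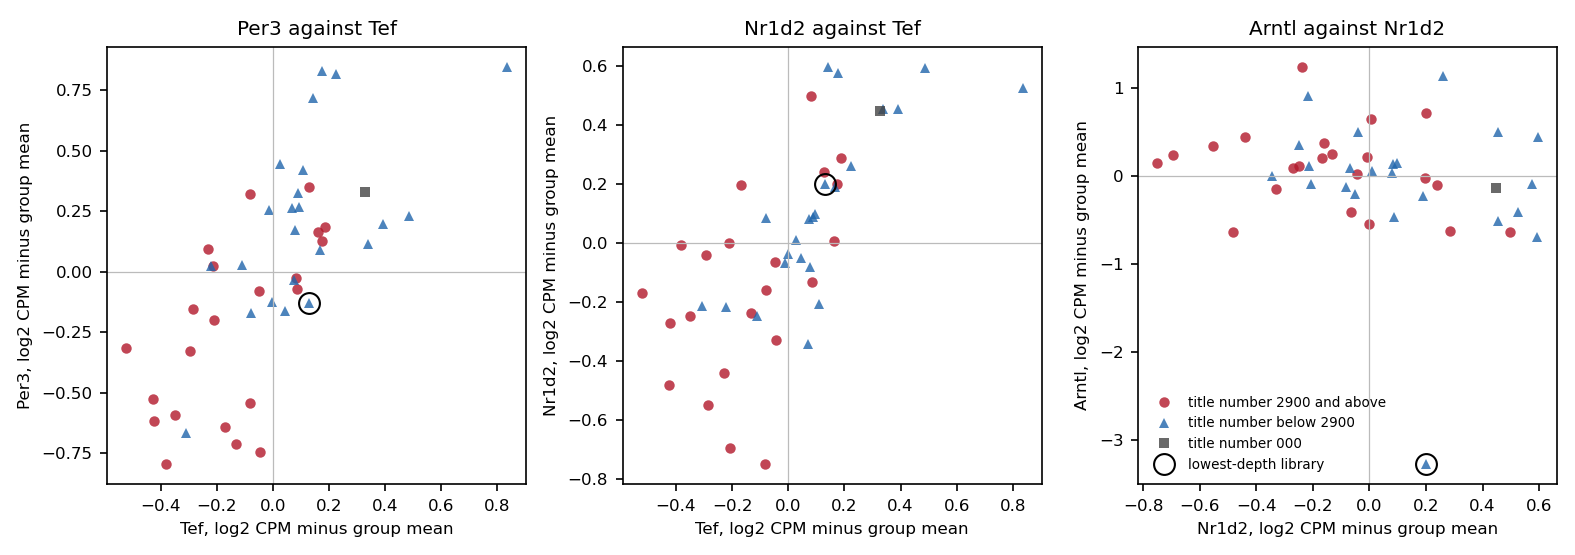
Group-centred log2 CPM of 3 pairs of clock genes, 1 point a library, with circles for title numbers of 2900 and above, triangles for those below, a square for 000 and a ring around the library of lowest depth. Tef varies with Per3 (r = 0.71) and Nr1d2 (r = 0.70), while Arntl against Nr1d2 forms a loose cloud (r = -0.23) with the ringed library far below it.

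The distance between Arntl and its repressor gene Nr1d2 is given as a description. Its 0 point depends on the level and the exon length of both genes, so its sign does not give a phase. Log2 CPM of Arntl minus that of Nr1d2 averaged -1.112 ± 1.002 (SD) over 46 libraries, from -5.89 in the library of lowest depth to 0.34, and -1.03 ± 0.70 without the 2 doubted libraries. In the groups its median was -1.06 in HAMSAB AD and -0.92 in HAMSAB WT, -1.14 in zero fiber AD and -0.36 in zero fiber WT, and -1.51 in control AD and -1.11 in control WT libraries. Zero fiber WT was highest and control AD lowest, and their ranges (-1.19 to 0.00 against -2.68 to -0.51) overlapped. Of the 46 libraries, those with title numbers of 2900 and above averaged -0.86 ± 0.72 (n = 22) and those below -1.352 ± 1.195 (n = 23), or -1.145 ± 0.687 (n = 22) without the library of lowest depth.

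Per3 and Tef, a Period repressor and an output factor, were lower in libraries with title numbers of 2900 and above than in those below. The number in a library's title is 2900 or above in 22 libraries, below 2900 in 23, and 000 in 1. The labels do not say what the number stands for, so it was used only as a possible order of animals or of collection. In a fit with the 12 group means and a series term over 45 libraries, 2 of 8 members passed, against 0.899% of all genes. Of the 8 members, 7 had negative log2 differences, with a median of -0.37 over the members and 0.00 over all tested genes.

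Per3 had a lowest, median and highest level of 20.4, 32.95 and 50.2 CPM in the 2900 and above libraries, against 24.8, 40.6 and 70.99 CPM in those below. The highest libraries all lay below 2900, and the ranges overlapped. Its means were 31.8 ± 8.46 CPM (n = 22) and 45.4 ± 12.8 CPM (n = 23), a log2 difference of -0.63 ± 0.13 (SE, edgeR adjusted p = 0.0142). Tef had 42.1, 65.7 and 92.5 CPM at 2900 and above, against 60.4, 77.3 and 112.7 CPM below. Its means were 66.1 ± 13.1 and 80.3 ± 15.5 CPM, a log2 difference of -0.38 ± 0.088 (edgeR adjusted p = 0.0247). For both genes the mean was lower at 2900 and above in each of the 6 diet-by-genotype groups, 1 of which (control WT) has a single library below 2900. These means pool the sexes, which were unevenly spread over the series. In HAMSAB AD and zero fiber WT all libraries at 2900 and above were female. The fitted differences use the 12 group means and so compare libraries within a sex.

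Nr1d2 averaged 30.1 ± 7.91 CPM at 2900 and above and 38.5 ± 11.6 CPM below, a log2 difference of -0.41 ± 0.12 (edgeR adjusted p = 0.0751, DESeq2 0.0450, voom 0.0379). Per2 gave -0.62 ± 0.30, Ciart -0.36 ± 0.18, Clock -0.15 ± 0.075 and Per1 -0.09 ± 0.20, none of them called. Arntl was the 1 member with a positive difference, 0.09 ± 0.15, also not called.

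Within the diets, the series difference of Per3 was log2 -1.15 ± 0.22 on HAMSAB (edgeR adjusted p = 0.0134), -0.29 ± 0.22 on zero fiber and -0.47 ± 0.19 on control. HAMSAB called 1 of 8 members against 0.0495% of all genes, zero fiber 0 against 0.0413% and control 0 against 0.0495%. On zero fiber 1 member had an unadjusted p under 0.05 (Ciart, log2 -0.82 ± 0.32), and on control 4 did. A difference of the series term between diets was called for 0 members and 0.0908% of genes (Per3 edgeR adjusted p = 0.511 and Per1 edgeR adjusted p = 0.382), so the larger HAMSAB value is not shown to differ. Per1 had log2 differences of 0.63 ± 0.32 on HAMSAB, 0.09 ± 0.33 on zero fiber and -0.81 ± 0.29 on control. Among the 5 HAMSAB libraries at 2900 and above, Per3 was 21.3 and 22.4 CPM in AD females and 22.2, 31.3 and 32.2 CPM in WT libraries, and these lay below the 10 HAMSAB libraries under 2900 of their own genotype (24.8 to 59.4 CPM in AD, 47.1 to 70.99 CPM in WT).

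Leaving out the libraries numbered 2963 to 2966, 4 HAMSAB females chosen after their values were seen, ended both calls: Per3 was then -0.45 (edgeR adjusted p = 0.148) and Tef -0.28 (edgeR adjusted p = 0.168). Females alone gave -0.62 for Per3 and -0.39 for Tef and males alone -0.64 and -0.34, neither sex with a call.

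**Figure D5:**
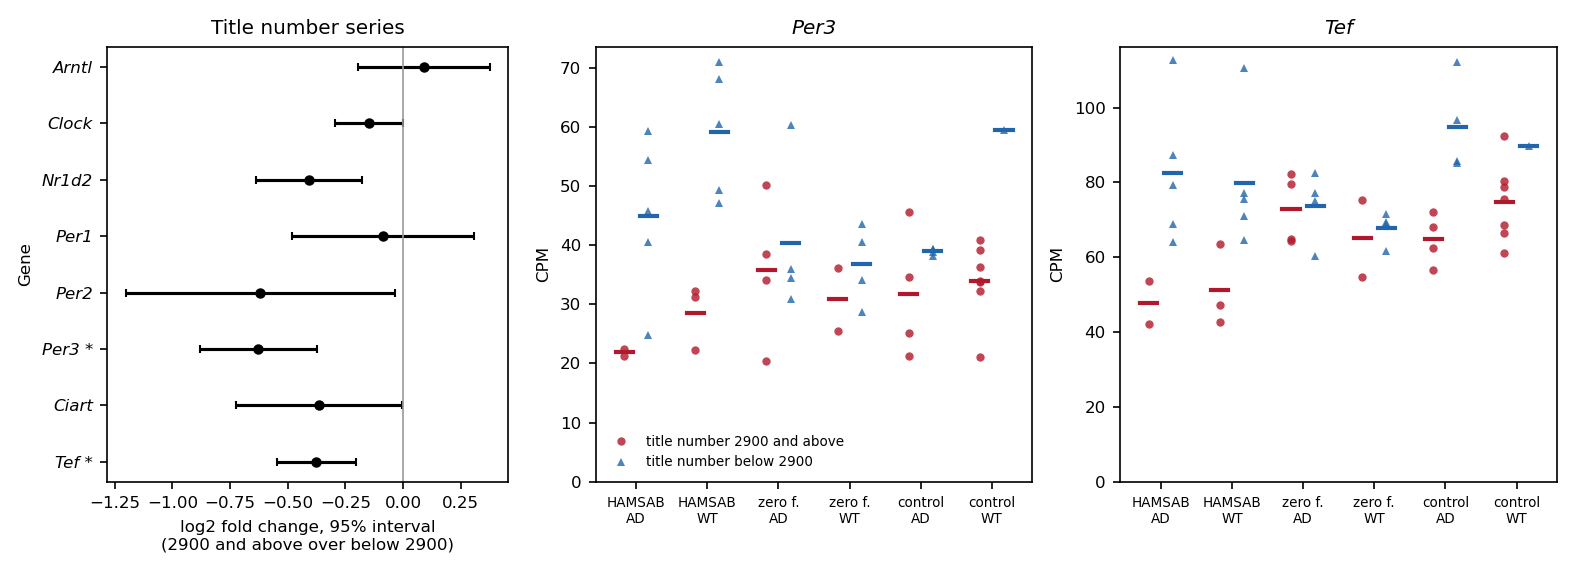
Left, log2 fold change of the 8 tested clock genes between title numbers of 2900 and above and those below, with 95% intervals (asterisks, edgeR adjusted p under 0.05); middle and right, Per3 and Tef levels (CPM) in each library by diet and genotype, with circles for 2900 and above, triangles for below and bars for means. In every diet-by-genotype group the 2900 and above mean, with the sexes pooled, is the lower one for both genes.

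Several other measures moved with the title series, and their part in the Per3 and Tef differences was not tested. The microglia markers were positive in 5 of 5 genes, with a sum of 27750 CPM (23320 to 31930) at 2900 and above and 25140 CPM (20270 to 29980) below. All 6 perivascular macrophage markers were negative, with sums of 39.9 CPM (15.6 to 84.1) and 56.9 CPM (19.9 to 150.5), and Mrc1 was called lower. The 7 neuron markers summed to 9.66 CPM (3.49 to 17.1) at 2900 and above and 14.7 CPM (2.81 to 30.6) below, with Syt1 called lower, and the 5 erythroid markers to 59.8 CPM (5.91 to 277.7) and 136.4 CPM (1.70 to 684.3). Median depth was 1937640 counts at 2900 and above and 2488218 below. The series was also unevenly spread over the groups: control WT had 7 libraries at 2900 and above and 1 below, and zero fiber WT had 2 and 4. Females were more frequent at 2900 and above than below.

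By sex, 0 of 8 members were called by edgeR, DESeq2 or voom, against 0.124% of all genes. Nr1d2 was the 1 member with an unadjusted p under 0.05. Its lowest, median and highest levels were 14.96, 28.3 and 59.7 CPM in 24 female libraries and 22.4, 36.7 and 62.1 CPM in 22 male libraries. The female libraries reached lower values and the ranges overlapped widely. The log2 difference of females minus males was -0.29 ± 0.11 (SE, edgeR adjusted p = 0.310). Females were more frequent at title numbers of 2900 and above, where Nr1d2 was lower (log2 -0.41 ± 0.12). The main fit has no series term, so these differences are not separated in it.

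Other clock genes also had no call in the genotype and diet comparisons. Of 11 other core transcription factors and repressors, 7 were tested (Cry1, Cry2, Rora, Rorb, Nfil3, Hlf and Bhlhe41), and 0 were called in any of the 9 comparisons or in the joint test. Bhlhe41, a repressor of the Arntl and Clock pair, averaged 633.0 CPM over all libraries. Its log2 differences from control were 0.56 ± 0.24 on HAMSAB and 0.75 ± 0.24 on zero fiber in AD (edgeR adjusted p = 0.250 and 0.208), and 0.51 ± 0.24 and -0.01 ± 0.26 in WT. In the joint test its edgeR adjusted p was 0.112. Hlf, the remaining PAR bZIP gene, was -0.55 ± 0.28 on HAMSAB against control in WT (edgeR adjusted p = 0.398), and 0.53 ± 0.17 in females minus males (edgeR adjusted p = 0.218).

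The kinases and ubiquitin ligases that set the stability of the PER and CRY proteins had 0 calls among the 7 tested of 8 listed. Their median log2 difference from control was -0.14 on HAMSAB and -0.14 on zero fiber in AD, and -0.04 and -0.16 in WT. The clock output list, 5 tested of 6, also had 0 calls. Medians over all tested genes lay between -0.01 and 0.01 in every comparison.

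Lists of signals that act on Per1 from outside the clock were set beside it. Of 9 glucocorticoid-responsive genes 8 were tested, with 0 called in any comparison. In the title series 0 of the 8 were positive, with a median log2 difference of -0.21 and summed levels of 1592 ± 267.5 CPM at 2900 and above and 1908 ± 474.2 CPM below. Of 11 immediate early genes 9 were tested, and 1 of them, Jun, passed the joint test of the 6 groups (edgeR adjusted p = 0.0261), which called 4.36% of all genes, with -0.45 ± 0.13 on HAMSAB against control in AD (edgeR adjusted p = 0.0831) and -0.39 ± 0.13 in WT (edgeR adjusted p = 0.142). In the title series 6 of the 9 immediate early genes were positive and 3 negative, with a median of 0.02.

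Likeness to a member over the group-centred libraries is given as a description. Of the 12120 other tested genes, Per3 and Nr1d2 were the most correlated with Tef (r = 0.71 and 0.70), and Per2 ranked 46th. Over all libraries Tef was in turn the most correlated with Per3 and with Nr1d2, whose next gene was Adgre1, the macrophage marker F4/80 (r = 0.70). Without the 2 doubted libraries Per3 and Nr1d2 ranked 2nd and 3rd for Tef, after Siglecf. With the series means also removed, they ranked 37th and 3rd. For Nr1d2, Tef ranked 2nd after Adgre1 without the 2 doubted libraries and 11th with the series means also removed, and for Per3 it ranked 1st and 19th.

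For Arntl the closest 3 genes were Smug1, Zfp266 and Rpa3 (r from 0.88 to 0.89), and the most opposite Rps10, Mkrn1, Akap11, Ehmt2 and March8 (r from -0.81 to -0.77). Without the library of lowest depth the closest 3 had r from 0.47 to 0.51 and the most opposite 5 from -0.37 to -0.28. Without zero fiber AD female replicate 1 alone the closest 3 stayed between 0.88 and 0.89. With both doubted libraries left out the closest 4 genes were Sept1, Abcc5, Ndufb2 and Brd8 (r from 0.61 to 0.66) and the most opposite Cxcl9, Fem1b, Atg13, Helz2 and Dnajc10 (r from -0.66 to -0.63). No clock gene was among them.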

How the data were processed

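Raw counts of reads per gene, without normalization, were deposited by the authors in 1 table. RNA was extracted with a QIAcube and an RNeasy Micro kit, per the labels' protocols. Per the submitters' processing notes, STAR 2.5.2b and featureCounts 1.5.2 were used with mouse build GRCm38 (mm10). How strands and multimapping reads were treated, and which annotation was counted, is not given in the sources used here. All members and lists were chosen with earlier results of these data known.

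Counts were fitted in R 4.3.3 with edgeR 4.0.16 (filterByExpr, TMM, quasi-likelihood F test), with 1 mean for each of 12 groups of diet, genotype and sex over 46 libraries, both sexes weighted equally. A call needed an adjusted p (Benjamini-Hochberg) below 0.05 over the 12121 tested genes, or 12118 in the fit with a title-series term. CPM uses TMM-adjusted library sizes and is given as mean ± SD. The limit of a count of 0 (3 counts) covers counting error only, and plotted 95% intervals come from edgeR standard errors, which include the spread of libraries. Correlations used Python 3.11.15 with scipy 1.17.1. Replicate numbers follow accession order and pair nothing, and no 2 libraries held identical counts. The edgeR step was tested on simulated data.

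All 10 members are named. Genes of other lists are named where called, and Bhlhe41, Hlf, the per-diet series term, and likeness to Tef, Nr1d2 and Per3 were chosen after their values were seen. Likeness was planned for Arntl, Nr1d1 and Dbp, of which Nr1d1 and Dbp did not pass the filter. Alternatives were DESeq2 1.42.0, voom (limma 3.58.1), other size factors, no filter, a series term, fits of the libraries compared alone, prior counts of 0.5 and 5, and leaving out libraries. Gene coordinates are from the GENCODE annotation of GRCm38, and promoter windows are from RefSeq (GRCm38.p6). Levels of human transgenes were not analysed here. A microglia marker and a gene among those closest to Arntl are not reported here.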

Additional observations from a re-analysis of the deposited data

Results flagged for a closer look

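Per2 was 4.95 CPM in zero fiber AD female replicate 2, from 13 reads, while the other 3 libraries of that group lay between 1.08 and 1.59 CPM. Its gap to the nearest library was large for the range of the group. In all, 88 combinations of gene and group were examined in this way, and chance gives such a gap in about 1 of 20 groups.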

How the results depend on the processing

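For single members in the comparisons with a direction, 2429 of 2441 alternative values kept their side of the threshold. Where a value was called in either fit, 0 reversed their direction. Values that were not called did change sign in places. When each library was left out, the AD minus WT difference ran from -0.36 to 0.51 for Per1 on zero fiber. For Arntl on control it ran from -0.10 to 0.11. The 12 values that changed side all concern Per3, Tef or Nr1d2 in the title series. Counts of members called or of correlated pairs held in 454 of 464 alternatives. A change from 2 to 3 members or from 6 to 5 pairs was taken as held. In the title series DESeq2 and voom each called 3 members. In the joint test of the 6 groups the count was 1 in place of 0 with no filter on low counts and with a title-series term. In the title series it was 0 in place of 2 in females alone, in males alone and without title numbers 2963 to 2966, and 1 to 3 when each library was left out (Tef lost without control AD female replicate 2 or HAMSAB WT female replicate 3, edgeR adjusted p up to 0.0549; Nr1d2 gained without HAMSAB WT male replicate 4). The correlated pairs numbered 0 in place of 6 within title numbers below 2900 and within 2900 and above, 2 with group and series means removed, and 5 to 6 when each library was left out. Nr1d2 with Per2 was also lost with DESeq2 size factors (permutation adjusted p = 0.0873), a prior count of 0.5 (0.0634) and no centring (0.115), where Arntl with Ciart was gained (0.0273, rho 0.02). The sex, series and leave-out fits use fewer libraries, and the cause of the other moves was not tested. No paired analysis was possible because the labels give no replicate numbers. Depth limits Nr1d1, Dbp and Per2 most.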
